A study of Mus musculus with 6 samples.

Results

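The matrix metalloproteinase genes examined here are 8 of those in a cluster on mouse chromosome 9, namely Mmp13, Mmp12, Mmp3, Mmp10, Mmp8, Mmp27, Mmp20 and Mmp7 in chromosome order. These 8 were taken by symbol from the 22162 genes in the table. Mmp1a and Mmp1b, which also lie within the cluster, were not among them. Mouse skin fibroblasts (MSFs) were isolated from the dorsal skin of a female FASST mouse of the FVB/N strain and grown at 3% oxygen. FASST cells carry a Cre-ERT2 driven by pro-alpha 2(I) collagen regulatory sequence, which is active in mesenchymal cells, and a lox-stop-lox p27Kip1 allele at ROSA26. Cells received 10 µM tamoxifen (TAM, n = 3 libraries, labelled senescent), which releases the p27Kip1 allele, or the ethanol vehicle (EtOH, n = 3 libraries, labelled non-senescent) for 48 h. Both groups carry the same alleles and no group received TAM without them, so an effect of TAM itself and of p27Kip1 cannot be told apart. The methods describe 1 MSF line from 1 mouse, and no source says that the 3 libraries of a group came from separate cultures, so p-values measure the spread between these libraries only.

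Matrix metalloproteinases are zinc-dependent proteases that cells secrete as inactive zymogens, which other proteases such as plasmin can activate and which tissue inhibitors of metalloproteinases (Timps) block. In skin, fibroblasts and keratinocytes make stromelysins and collagenases during wound repair, and these enzymes are also among the factors that senescent fibroblasts are known to secrete. Many genes of the family have a TATA box and a nearby site for the transcription factor AP-1, through which growth factors and inflammatory cytokines act on them.

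The values are the authors' normalized counts per gene, whose scaling is not stated and which are not whole numbers. They summed to between 14952367 and 17314953 per library, and by their mean 1 c.p.m. equals 16.2 normalized counts. The smallest value above 0 was between 0.36 and 0.89 normalized counts in each library, so values of a few normalized counts stand for very few reads. Cdkn1b, the gene for p27Kip1, had 1427 to 3074 normalized counts in EtOH and 1520 to 1699 in TAM libraries, and was higher in TAM in 1 of 3 pairs with the same replicate number. Whether reads of the p27Kip1 allele were counted on Cdkn1b is not stated. All 10 fibroblast markers looked at were expressed, and their summed values were 1531767 to 1680762 in EtOH and 684994 to 1127539 in TAM libraries, which do not overlap. Most of these sums came from the collagens Col1a1, Col1a2 and Col3a1, and without them and Dcn the other 6 markers summed to 85828 to 107491 in EtOH and 67880 to 83087 in TAM libraries. In bulk RNA, fewer cells of a type and less RNA per cell cannot be told apart.

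Of the 8 genes, 5 were tested, as part of the 11877 genes that reached 1 c.p.m. in 3 or more of the 6 libraries. Mmp3, Mmp13 and Mmp8 had higher values in all TAM than in all EtOH libraries, Mmp10 was higher in TAM within each pair of libraries with the same replicate number, and Mmp27 overlapped between the groups. Without regard to the replicate numbers, 0 of the 5 passed an adjusted p of 0.05 (limma on log2(value + 1), Benjamini-Hochberg over all genes tested), and 3 had an unadjusted p under 0.05. Across all genes tested, 0.168% were called higher in TAM and 6.67% were higher at an unadjusted p under 0.05. With the replicate number as a block, 3 of the 5 were called higher in TAM, namely Mmp13, Mmp3 and Mmp8, against 1.00% of all genes tested. Mmp12, Mmp20 and Mmp7 did not pass the filter and are given by their values. Mmp8 passed it through its 3 TAM libraries alone, so its presence among the tested genes depended on its being higher there.

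**Figure D1:**
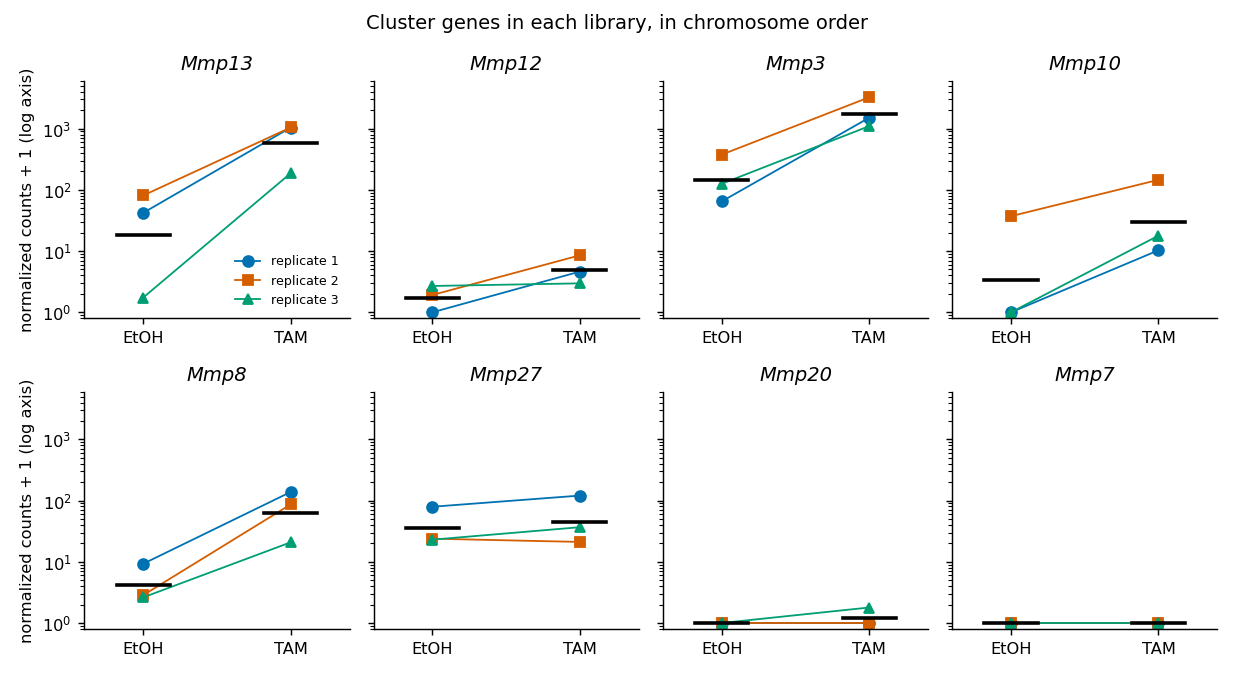
Normalized counts + 1 on a log axis for the 8 genes in chromosome order, with EtOH at the left and TAM at the right of each panel, a line joining libraries with the same replicate number and a black bar at the mean of the log values. All lines of Mmp13, Mmp3, Mmp10 and Mmp8 rise from EtOH to TAM, 1 line of Mmp27 falls, and Mmp7 is at 0 in all 6 libraries.

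The stromelysins Mmp3 and Mmp10 lie next to each other. Mmp3, which degrades proteoglycans, fibronectin and basement membrane proteins and can activate other metalloproteinase zymogens, had the highest mean of the cluster in both groups. It had 63.8, 376 and 125 normalized counts in EtOH replicates 1, 2 and 3, and 1507, 3255 and 1099 in TAM replicates 1, 2 and 3. The lowest TAM library was above the highest EtOH library, and replicate 2 was the highest in both groups. TAM libraries were 23.6-fold, 8.66-fold and 8.81-fold above the EtOH libraries of the same number. The log2 fold change was 3.59 (95% interval 2.02 to 5.17) with an adjusted p of 0.103 in limma without the block. With the replicate block the gene rose, with a standard error of 0.33 on the log2 scale and an adjusted p of 0.0237 in limma.

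Mmp10, the stromelysin closest to Mmp3 in sequence, had 0, 36.2 and 0 normalized counts in the EtOH libraries and 9.30, 145 and 16.9 in the TAM libraries. The groups overlapped, because EtOH replicate 2 was above TAM replicates 1 and 3, and replicate 2 was the highest in both groups as it was for Mmp3. The gene was higher in TAM in 3 of 3 pairs, by a log2 fold change of 3.17 (95% interval -0.70 to 7.03, adjusted p = 0.464 in limma). With the replicate block the standard error was 0.61 on the log2 scale and the adjusted p was 0.0887 in limma. As 2 EtOH libraries were at 0, the size of this change depends on the pseudocount, from 1.37 with 10 to 5.32 with 0.1 on the log2 scale.

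Mmp3 and Mmp10 share sequence, which bears on how reads were divided between them. Their coding sequences were identical at 80.4% of 1420 aligned bases, against 62.8% to 67.8% for all other pairs among the 8 genes, and the longest identical run was 104 bases. The closest stretch over at least 100 bases covers exon 3 of both genes, at chr9:7447265-7447416 in Mmp3 and chr9:7503478-7503629 in Mmp10 (mm9, forward strand). Exon 3 itself has 149 bases and begins at 7447268 in Mmp3 and 7503481 in Mmp10, so the first bases of the stretch lie before it. The stretch differs at 2 of 152 bases, G22A and A58G, with the base of Mmp3 first and positions counted from 1 at the 5′ end. The stretch is printed for both genes to show how little separates reads of one from reads of the other, with the differing bases in capitals.
Mmp3 exon 3 stretch: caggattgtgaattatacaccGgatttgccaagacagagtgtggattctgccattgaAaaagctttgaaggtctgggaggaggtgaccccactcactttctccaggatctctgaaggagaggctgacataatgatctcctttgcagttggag
Mmp10 exon 3 stretch: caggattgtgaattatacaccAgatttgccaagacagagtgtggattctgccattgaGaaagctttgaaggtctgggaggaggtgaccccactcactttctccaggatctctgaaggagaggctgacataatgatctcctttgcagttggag

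Read length and the treatment of reads that map to several places are not given in the sources used here. Of the Mmp3 transcript, 281 of 1798 bases (15.6%) matched another place of mm9 in runs of 100 or more bases with an identity of 95% or higher. The places were this Mmp10 exon and chrX:157152129-157152257, a stretch of 129 bases in the pseudogene annotated as Gm15244 within Ppef1. A second match on chromosome X, to the last part of the transcript, had 94.8% identity over 572 bases and so just missed that limit. It passed with megablast scoring, an alternative chosen after seeing the data, which gave a share of 47.0%. Runs of at least 50 identical bases covered 31.4% of the Mmp3 and 15.5% of the Mmp10 transcript. For Mmp10, 8.84% of the transcript matched elsewhere at 95% identity, all of it in Mmp3, and the other 6 genes had no such match. The level of Mmp3 is therefore uncertain by the reads that could be placed on either copy, and that of Mmp10, which was lower in every library, by reads of Mmp3. In log2 terms Mmp3 exceeded Mmp10 by 6.02, 3.34 and 6.97 in the EtOH and by 7.19, 4.48 and 5.95 in the TAM libraries. This difference changed by 0.43 between the groups (two-sided exact permutation test, p = 0.7, adjusted p = 0.7 over 3 such comparisons between pairs of genes of the cluster). As Mmp10 was at 0 in EtOH replicates 1 and 3, the size and sign of this change depend on the pseudocount. With a pseudocount of 0.1 the log2 fold change was 3.60 for Mmp3 and 5.32 for Mmp10.

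The collagenases Mmp13 and Mmp8, which cleave fibrillar collagens, were the other genes called higher with the block. Mmp13, known from bone, cartilage and wound fibroblasts, had 41.1, 80.1 and 0.74 normalized counts in the EtOH libraries and 1042, 1045 and 186 in the TAM libraries. The groups did not overlap, and replicate 3 was the lowest in both. The value of 0.74 was the smallest above 0 in its library, so the change within pair 3 rests on about the least that could be measured. Within pairs 1, 2 and 3 the log2 differences were 4.63, 3.69 and 6.75. The mean TAM value of 758 ± 495 (SD, n = 3) was 18.6 times the mean EtOH value of 40.6 ± 39.7 (SD, n = 3). The log2 fold change was 5.02 (95% interval 1.64 to 8.40), with an adjusted p of 0.221 in limma. With the replicate block Mmp13 rose, with a standard error of 0.60 on the log2 scale and an adjusted p of 0.0359 in limma, and this call was lost with the block under a pseudocount of 0.1 (adjusted p = 0.0511 in limma). Without EtOH replicate 3 the log2 fold change was 3.33, and without both replicates 3 it was 4.16 with the block (adjusted p = 0.00530 in limma). Markers of osteoblasts and chondrocytes, which also make Mmp13, summed to 177 to 1048 normalized counts in EtOH and 116 to 225 in TAM libraries. Of the 8 in the table, Col10a1 and Sox9 passed the filter, and Ibsp was at 0 in all 6 libraries.

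Mmp8, the collagenase stored in neutrophil granules, had 8.28, 1.85 and 1.62 normalized counts in the EtOH libraries and 137, 85.5 and 19.8 in the TAM libraries. All EtOH libraries were under 1 c.p.m. and all TAM libraries above it, with replicate 1 the highest in both groups. TAM libraries were 16.6-fold, 46.2-fold and 12.2-fold above EtOH libraries of the same number. The log2 fold change was 3.94 (95% interval 1.92 to 5.95), with an adjusted p of 0.146 in limma. With the block Mmp8 rose, with a standard error of 0.52 on the log2 scale and an adjusted p of 0.0429 in limma, and this call was lost with the block under a pseudocount of 10 (adjusted p = 0.0701) and under quantile normalization (adjusted p = 0.0685). Neutrophil markers summed to 59.0 to 104 normalized counts in EtOH and 125 to 385 in TAM libraries. Of the 8 in the table, only Camp and Cxcr2 passed the filter, and the granule genes Ltf and Mpo and the calprotectin gene S100a9 were at 0 in all 6 libraries.

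**Figure D2:**
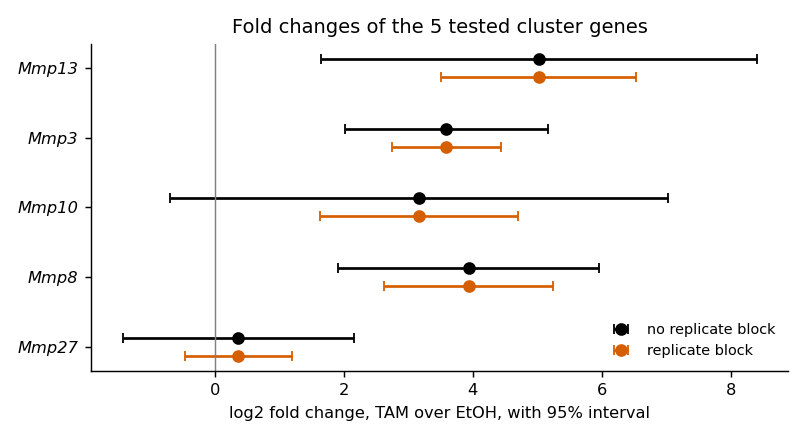
Log2 fold change of TAM over EtOH with its 95% interval for the 5 tested genes, fitted without (black) and with (orange) the replicate number as a block. The intervals of Mmp13, Mmp3 and Mmp8 lie above 0 in both fits, that of Mmp10 only with the block, and that of Mmp27 spans 0 in both.

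Mmp27, a metalloproteinase whose substrates are little known, had 78.3, 22.8 and 22.0 normalized counts in the EtOH libraries and 120, 20.1 and 35.7 in the TAM libraries. Replicate 1 was the highest in both groups, and TAM replicate 2 was the lowest of all 6 libraries. The gene was higher in TAM in 2 of 3 pairs, with a log2 fold change of 0.37 (95% interval -1.43 to 2.16, adjusted p = 0.877 in limma). With the block the interval was -0.47 to 1.20 and the adjusted p was 0.624 in limma. Mmp27 begins 2.91 kb after the end of Mmp8, the shortest distance between neighbours in the order of the 8 genes. The other gaps in that order, which leaves out Mmp1a and Mmp1b, were 17.1 to 76.3 kb. In the EtOH libraries Mmp8 was below Mmp27 by 3.10, 3.06 and 3.13 on the log2 scale. In the TAM libraries the same difference, Mmp8 less Mmp27, was 0.19, 2.04 and -0.82. It thus changed by 3.57, and the two-sided exact permutation test gave p = 0.1, the smallest that 3 libraries against 3 allow (adjusted p = 0.3 over 3 comparisons). For Mmp3 less Mmp13 the change was -1.43 (exact permutation test, p = 0.6, adjusted p = 0.7).

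The remaining 3 genes were near or at 0. Mmp12, the elastase of macrophages, had 0, 0.92 and 1.69 normalized counts in the EtOH and 3.63, 7.53 and 1.97 in the TAM libraries. All TAM values were above all EtOH values, but every one was under 1 c.p.m., and with no filter on low values its adjusted p in limma was 0.305, or 0.270 with the block. Macrophage markers summed to 207 to 532 normalized counts in EtOH and 385 to 568 in TAM libraries. Of the 11 in the table, Cd14, Cd68, Csf1r and Lyz2 passed the filter, and only Emr1, a marker of mouse macrophages, was at 0 in all 6 libraries. In the annotation Mmp12 overlaps Mmp1b on the other strand by 157 exon bases (2.17%), and no strand setting is given. The row of Mmp12 in the data ends at 7349787, however, before the start of Mmp1b at 7368239. This overlap thus lies outside the row. Mmp20, the enamelysin of developing teeth, was above 0 in TAM replicate 3 only, at 0.79 normalized counts. Mmp7, the matrilysin of epithelia, was listed at 0 in all 6 libraries.

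On single values, the two-sided exact permutation test gave p = 0.1 for Mmp13, Mmp3, Mmp8 and Mmp12, p = 0.3 for Mmp10 and p = 0.7 for Mmp27. The 4 smallest had an adjusted p of 0.2 over the 8 genes. Among all genes tested, 9.19% had every TAM value above every EtOH value, so such a separation in 3 of the 5 tested genes has to be read beside that share.

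Along the chromosome the cluster spans 427 kb of mm9, from 7272514 to 7699585 on chromosome 9, and all 8 genes lie on the forward strand. Mmp13 (7272514 to 7283333), Mmp3 (7445822 to 7455972), Mmp10 (7502352 to 7510238) and Mmp8 (7558429 to 7568486) take up its first part. Mmp27 (7571396 to 7581885), Mmp20 (7628231 to 7674968) and Mmp7 (7692086 to 7699585) follow. Mmp12 begins at 7344381, between Mmp13 and Mmp3. Mmp1a and Mmp1b, the mouse counterparts of interstitial collagenase, also lie within the span. Mmp1a was at 0 in the EtOH libraries and had 1.45, 3.34 and 0.61 normalized counts in the TAM libraries, and Mmp1b was above 0 in TAM replicates 1 and 3 only, at 0.49 and 0.44.

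Outside the span, 13 genes lay within 1 Mb, 3 before Mmp13 and 10 after Mmp7, and 11 of them were tested. In limma 0 of the 11 were called in either direction, with or without the block, and 0 had an unadjusted p under 0.05. Their log2 fold changes were between -0.41 for Dync2h1, a ciliary dynein, and 0.43 for Yap1, the Hippo pathway coactivator. Yap1 and Birc3 had every TAM value above every EtOH value, as did 9.19% of all genes tested. Dcun1d5, the next gene before Mmp13, had a log2 fold change of -0.05. After Mmp7 came an unnamed gene at 0 in all libraries (ENSMUSG00000074516) and then Tmem123, with a log2 fold change of -0.02. The other untested neighbour, 1700128F08Rik, was under 1 c.p.m. in every library. It had 5.47, 9.59 and 8.96 normalized counts in EtOH and 3.6, 1.66 and 2.7 in TAM libraries. These groups did not overlap, and the difference of the mean log2 values was -1.30. The median over all 11877 genes tested was -0.03. Whether the genes of the cluster differed from these neighbours was not tested.

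**Figure D3:**
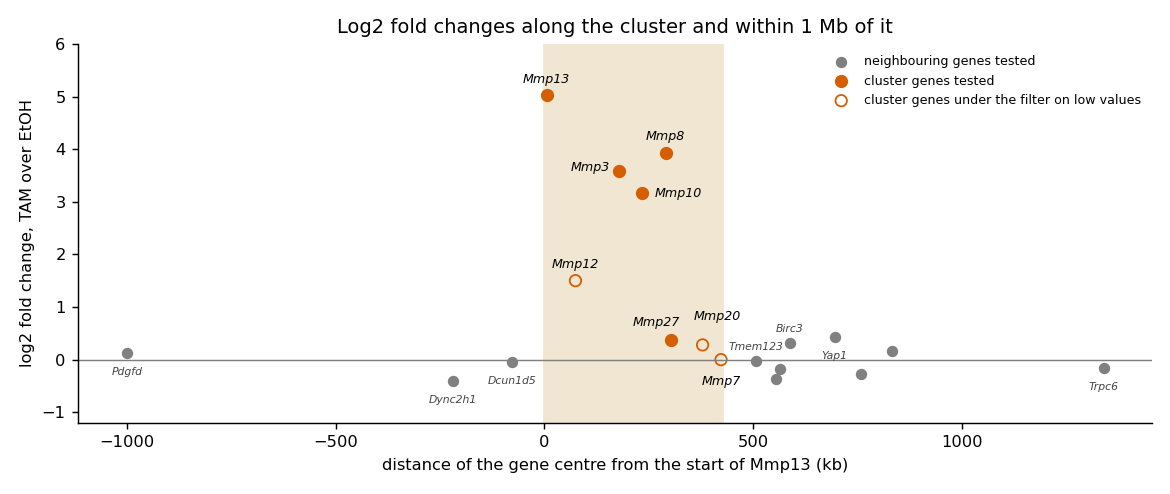
Log2 fold change of TAM over EtOH, as the difference of the mean log2(value + 1), against the distance of each gene's centre from the start of Mmp13 in kb. Filled orange points are the 5 tested genes of the cluster (shaded), open ones those under the filter, and grey ones the 11 tested neighbours, which all lie between -0.41 and 0.43.

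Promoter sequence was looked at for letters that members of the cluster share. The 250 bases before the RefSeq start of each gene were taken from RefSeq promoters (GRCm38.p6), and all 8 genes had an entry whose 250 bases matched mm9 exactly once. Mmp12 and Mmp7 each had 2 entries, of which the first was used. The AP-1 site TGANTCA, which reads the same on both strands, was found in 5 of the 8, namely Mmp13, Mmp3, Mmp10, Mmp20 and Mmp7, and in 6.75% of all 32851 promoters. The RefSeq starts of Mmp12, Mmp10 and Mmp7 are not those of the mm9 annotation, from which the coordinates of the genes were taken. It lay 35 to 29 bases before the RefSeq start in Mmp13, 46 to 40 in Mmp3, 63 to 57 in both Mmp10 and Mmp7, and 95 to 89 in Mmp20. The TATA box TATAAA stood in the same 5 promoters and in 12.4% of all. These letters lay 16 to 11 bases before the RefSeq start in Mmp13, 7 to 2 in Mmp3 and 29 to 24 in Mmp10. In Mmp20 they lay 58 to 53 bases before it, and in Mmp7 both 123 to 118 and 26 to 21. The ETS core AGGAAG, searched on both strands, was in those of Mmp13, Mmp12, Mmp3, Mmp8 and Mmp7 and in 29.5% of all. Of the 3 called genes, Mmp8 had neither AP-1 nor TATA letters in this window, and Mmp7, with both, was listed at 0. Whether these letters bear on the changes was not tested. The promoters of Mmp13, Mmp3 and Mmp10 are printed with that of Mmp8, which has no AP-1 letters, and that of Mmp7, which has them but no reads, each from its first base to the base before the RefSeq start with the AP-1 letters in capitals.
Mmp13 promoter, chr9:7272264-7272513, mm9, forward strand: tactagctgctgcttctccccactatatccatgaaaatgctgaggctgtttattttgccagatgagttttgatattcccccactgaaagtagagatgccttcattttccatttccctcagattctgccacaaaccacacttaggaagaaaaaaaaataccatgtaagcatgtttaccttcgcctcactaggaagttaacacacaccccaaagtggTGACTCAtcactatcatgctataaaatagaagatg
Mmp3 promoter, chr9:7445572-7445821, mm9, forward strand: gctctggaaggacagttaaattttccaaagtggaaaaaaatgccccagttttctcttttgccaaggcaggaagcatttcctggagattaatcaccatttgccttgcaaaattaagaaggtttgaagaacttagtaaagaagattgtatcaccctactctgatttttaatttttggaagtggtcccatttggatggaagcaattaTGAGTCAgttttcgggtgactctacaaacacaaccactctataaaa
Mmp10 promoter, chr9:7502092-7502341, mm9, forward strand: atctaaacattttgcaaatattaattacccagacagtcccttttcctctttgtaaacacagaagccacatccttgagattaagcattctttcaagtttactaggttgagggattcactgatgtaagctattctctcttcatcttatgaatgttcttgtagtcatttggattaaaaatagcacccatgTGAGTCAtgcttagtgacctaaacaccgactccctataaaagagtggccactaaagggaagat
Mmp8 promoter, chr9:7558179-7558428, mm9, forward strand: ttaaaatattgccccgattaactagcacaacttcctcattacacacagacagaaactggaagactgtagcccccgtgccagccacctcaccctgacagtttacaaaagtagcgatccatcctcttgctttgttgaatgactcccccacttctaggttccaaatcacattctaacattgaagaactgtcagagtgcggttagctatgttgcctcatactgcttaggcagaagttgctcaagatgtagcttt
Mmp7 promoter, chr9:7691840-7692089, mm9, forward strand: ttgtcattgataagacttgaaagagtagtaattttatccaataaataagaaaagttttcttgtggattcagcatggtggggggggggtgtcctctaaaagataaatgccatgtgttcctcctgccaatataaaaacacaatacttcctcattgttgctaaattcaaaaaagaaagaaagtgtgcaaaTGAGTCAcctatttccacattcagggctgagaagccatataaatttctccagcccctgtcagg
A match is a run of letters and not a measured site, and these data hold no binding measurement.

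Levels were compared between genes per kilobase of exon. In EtOH the order by mean was Mmp3 (105 ± 92.0, SD, n = 3), Mmp27 (18.6), Mmp13 (15.2), Mmp10 (7.01), Mmp8 (1.60) and Mmp12 (0.120) normalized counts per kb. In TAM it was Mmp3 (1087 ± 637, SD, n = 3), Mmp13 (283 ± 185, SD, n = 3), Mmp10 (33.2), Mmp8 (32.9), Mmp27 (26.5), Mmp12 (0.605) and Mmp20 (0.0804). By mean Mmp3 was thus the highest in both groups, and at the exon length used Mmp27 passed from the second place to the fifth. The ranges of neighbours in this order did not overlap between Mmp3 and Mmp27 and between Mmp8 and Mmp12 in EtOH, although in EtOH replicate 1 Mmp3 and Mmp27 were at 35.5 and 35.4. In TAM they did not overlap between Mmp3 and Mmp13, between Mmp27 and Mmp12, and between Mmp12 and Mmp20. All other neighbours in the order overlapped. The length used for Mmp27 was 2210 bases of exon, which extends past the end of its row, against 1656 in the transcript matched by BLAST. With a shorter length its values per kb would be higher. Its place in TAM and its separation from Mmp3 in EtOH therefore depend on this length. Against Mmp2, the gelatinase that MSFs expressed at 7618 normalized counts per kb in EtOH and 7130 in TAM, the mean of Mmp3 was 1.37% in EtOH and 15.2% in TAM. Against Mmp14, the membrane-bound metalloproteinase, it was 1.96% and 23.5%. These shares moved with replicate 2, the highest of Mmp3 in both groups. Without it they were 0.827% and 8.81% against Mmp2 and 1.01% and 14.1% against Mmp14.

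**Figure D4:**
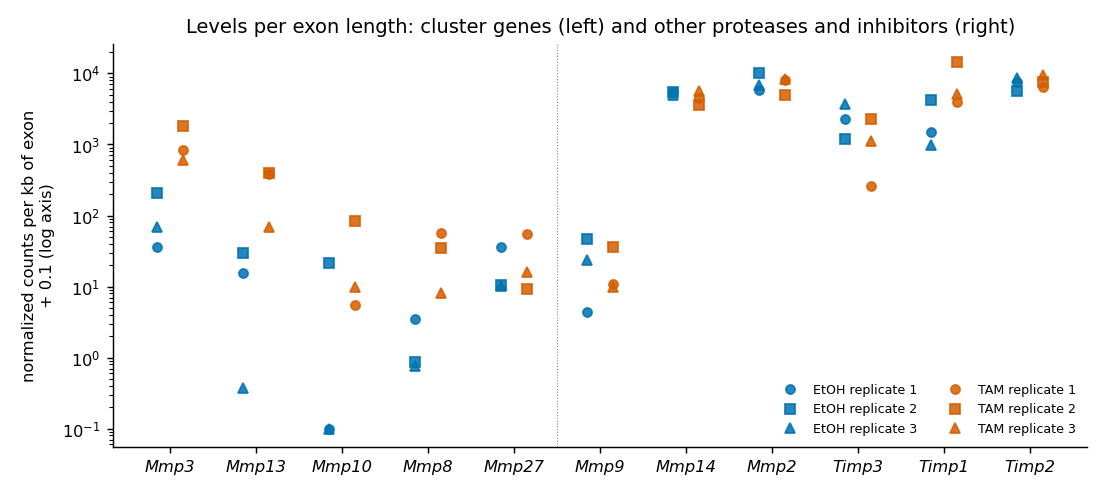
Normalized counts per kb of exon + 0.1 on a log axis in each library, for 5 genes of the cluster (left of the dotted line) and 6 other protease and inhibitor genes (right), with EtOH in blue, TAM in orange and a symbol for each replicate number. Mmp3 is the highest of the cluster in TAM and lies below Mmp14, Mmp2 and the Timp genes shown in each library, except for Timp3 in TAM replicate 1.

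Other genes of the metalloproteinase pathway were taken from lists compiled by hand. Counts within each list are to be read beside the shares of all 11877 genes tested. Those were 1.00% called higher in TAM with the block in limma, and 6.67% higher at an unadjusted p under 0.05 without it. Outside the cluster 15 metalloproteinases were listed, of which 11 were tested and 0 called in limma with or without the block. The median log2 fold change was -0.09, and before adjustment 2 were higher and 1 lower at a p under 0.05 without the block. The largest change was that of Mmp16, a membrane-bound metalloproteinase, whose mean was 32.8 ± 12.9 (SD, n = 3) normalized counts in EtOH and 201 ± 91.9 (SD, n = 3) in TAM libraries. These groups did not overlap, and the log2 fold change was 2.54, with adjusted p-values of 0.103 without and 0.0809 with the block (limma). The log2 fold changes of Mmp2, Mmp9 and Mmp14 were -0.09, -0.12 and -0.23.

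Of 9 listed inhibitors, 5 were tested and 0 called without the block, and 1 was higher at an unadjusted p under 0.05. The median of their log2 fold changes was 0.11. With the block 1 was called, Timp1, the soluble inhibitor of most metalloproteinases. Timp1 had 1328, 3801 and 874 normalized counts in EtOH and 3571, 12745 and 4506 in TAM libraries. EtOH replicate 2 was above TAM replicate 1, but each TAM library was above the EtOH library of its number. Its log2 fold change was 1.85 (adjusted p = 0.291 in limma, 0.0384 with the block). Per kb, the mean of Mmp3 was 4.64% of that of Timp1 in EtOH and 13.9% in TAM. Timp2 had a log2 fold change of 0.11, Timp3, which is bound to the matrix, -1.30, and Reck, a membrane-anchored inhibitor, -0.57, none of them called in either fit.

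Among 15 genes of activating proteases and their controls, 9 were tested, 0 called without the block in limma and 2 with it, and the median log2 fold change was 0.72. Before adjustment and without the block, 2 were higher at a p under 0.05. The called genes were Serpine2, an inhibitor of thrombin and plasminogen activators (log2 fold change 3.65, adjusted p = 0.297, 0.0147 with the block), and Pcsk5, a proprotein convertase (3.14, adjusted p = 0.268, 0.0345 with the block). Serpine2 had 105, 10.4 and 6.05 normalized counts in EtOH and 1348, 163 and 75.2 in TAM libraries, with replicate 1 the highest in both groups. Plau, the urokinase that activates plasminogen, had 645, 1048 and 107 normalized counts in EtOH and 186, 2786 and 501 in TAM libraries. Its groups overlapped, and its log2 fold change was 0.61 (adjusted p = 0.862 in limma). Plg, the gene for plasminogen, was at 0 in all 6 libraries.

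Of the transcription factors known from metalloproteinase promoters, 20 were listed, 19 were in the table and 18 were tested. None was called in limma in either fit, 0 had a p under 0.05 before adjustment without the block, and the median log2 fold change was 0.14. The largest was that of Etv4, an ETS factor, at 1.32 (adjusted p = 0.623, 0.106 with the block). Fos, an AP-1 subunit, had 110, 1342 and 22.0 normalized counts in EtOH and 149, 241 and 112 in TAM libraries. EtOH replicate 2 was by far the highest for Fos, and it was the highest also for Fosb, Fosl2, Junb, Jun and Atf3. It was the lowest for Jund, and Fosl1 was highest in TAM replicate 2 and higher in TAM in 3 of 3 pairs.

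Of 17 listed inducers, 8 were tested, 0 were called without the block and 1 with it. The median of the 8 log2 fold changes was 0.54, and 2 genes were higher at a p under 0.05 before adjustment without the block. The called gene was Il6, an inflammatory cytokine, with 5.16, 7.56 and 0 normalized counts in EtOH and 66.7, 138 and 26.2 in TAM libraries. Il6 passed the filter through its TAM libraries alone, so its presence among the tested genes depended on its being higher there. The groups did not overlap, and the log2 fold change was 4.08 (adjusted p = 0.170 in limma, 0.0332 with the block), a call lost with the block under a pseudocount of 0.1. The inducers Il1b and Tnf were at 0 in all EtOH libraries and did not exceed 1.66 and 0.82 normalized counts in TAM libraries. Among 14 listed repressors and receptors of inducers, 13 were tested, 0 were called without the block and 1 with it, and the median log2 fold change was 0.29. It was Il1rn, the antagonist of the interleukin-1 receptor, with 11.4, 6.61 and 3.39 normalized counts in EtOH and 79.4, 41.9 and 30.6 in TAM libraries. Il1rn too passed the filter through its TAM libraries alone. Its log2 fold change was 2.68 (adjusted p = 0.145 in limma, 0.0461 with the block), and it was not called with the block under quantile normalization or pseudocounts of 0.1 and 10.

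Of 22 listed matrix proteins that these enzymes cleave, 16 were tested and 0 called without the block, where 4 were higher and 2 lower at a p under 0.05 before adjustment. The median of the 16 log2 fold changes was 0.04. With the block 4 were called higher, namely the basement membrane collagens Col4a1 (log2 fold change 1.60, adjusted p = 0.0461 in limma) and Col4a2 (1.71, 0.0321), the matricellular Tnc (2.85, 0.0285) and Spp1 (2.34, 0.0481), the last not with a pseudocount of 0.1. The largest change was that of Eln, the gene for elastin, with 20.9, 86.0 and 42.6 normalized counts in EtOH and 2.63, 5.01 and 5.37 in TAM libraries. These groups did not overlap, and the log2 fold change was -3.08, with adjusted p-values of 0.131 without and 0.0543 with the block (limma). Eln passed the filter on low values through its EtOH libraries alone, so its presence among the tested genes depended on its being lower in TAM. Eln was called lower with the block under quantile normalization or no filter, and with library weights. Across all genes tested, 0.168% were called higher and 0.0758% lower without the block, and 1.00% higher and 0.615% lower with it. The share of all genes lower at an unadjusted p under 0.05 was not computed.

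The genes whose log2 values were most like each tested gene of the cluster over the 6 libraries are given as a description. All share these libraries and the difference between the groups, and many genes come close. For Mmp13 they were Rela, Klhl30 and Prl2c3 (Pearson's r 0.997, 0.995 and 0.990), of 69 genes with r above 0.95. For Mmp3 they were Zbtb42, Gm88 and Serpini1 (0.992, 0.990 and 0.987), of 56 such genes, and for Mmp10 Lancl3, Bdkrb1 and Senp2 (0.996, 0.992 and 0.992), of 66. For Mmp8 they were Rb1cc1, Stx6 and Efemp2 (0.997, 0.995 and 0.992), of 85, and for Mmp27 Tmem44, Ptx3 and Pkdcc (0.985, 0.981 and 0.976), of 12. None of these genes belongs to the cluster, and no gene was named for more than 1 of its members. Likeness on this scale ignores size, as Rela ranged from 994 to 1364 normalized counts while Mmp13 ranged from 0.74 to 1045.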

How the data were processed

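Poly(A) RNA of 6 MSF libraries was sequenced. Per the labels and the methods, the authors mapped reads to mm9 with TopHat, assigned them to genes with htseq-count and tested them in edgeR after TMM normalization. The deposited signal is a single table that holds the normalized count of each gene in each library and does not name its scaling. As its values are not whole reads, limma 3.58.1 in R 4.3.3 was used in place of the count test of the study, on log2(value + 1) with an intensity trend, two-sided, on genes that reached 1 c.p.m. in 3 or more of the 6 libraries, and edgeR was not run here. A gene was called when its p, adjusted by Benjamini-Hochberg over all genes tested, was under 0.05.

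The genes of the cluster, the lists, the tests and the rule for named genes were chosen with earlier results of these data known. Named are the 8 genes, neighbours next to or within the span, the called genes of each list or else its largest change, 8 fixed pathway genes, and the 3 genes most like each tested gene. Plg, Il1b, Tnf, Fos and the genes named with it, Eln and 1700128F08Rik were named after their values were seen. The fit was tested on simulated data.

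The replicate numbers come from the labels. Deviations from the group means correlated at 0.24 to 0.42 between libraries of the same number and at -0.31 to 0.04 between others, across 11877 genes. Deviations within a group sum to 0 for each gene, so positive values between same numbers push the others down, and these ranges are not independent. No source states that the numbers mark pairs. They were taken to pair the libraries, and blocked values are given where they change a call. Exact permutation tests used all 20 assignments of libraries.

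Positions are those of mm9, and transcripts were matched to it with BLAST 2.17.0. Values per kb used the union of annotated exons, which for Mmp12 and Mmp27 extends past the end of the gene's row. The number of reads behind the values is unknown, so no counting intervals were computed. Alternatives were other scalings, filters and pseudocounts, library weights, and leaving out libraries. Python 3.11.15 and matplotlib 3.10.9 were used for figures.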

Additional observations from a re-analysis of the deposited data

How the results depend on the processing

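The number of genes of the cluster called higher in TAM was 0 without the replicate block, and it was 0 also under scaling by library size only, median-ratio scaling, quantile normalization, no filter, a minimum of 10 in every library, pseudocounts of 0.1 and 10, and without each of the 6 libraries in turn (0 to 0). Of the genes of the cluster, 2 were tested at a minimum of 10 and 3 to 5 with 1 library left out. Few of all genes were called in these settings, as given below, so a count of 0 there says little. With library weights the number was 1 (Mmp3, adjusted p = 0.00936 in limma). With the replicate block it was 3 (Mmp13, Mmp3 and Mmp8), as it was with the block under library size only and, in a setting chosen after seeing the data, with the block and no filter. It was 2 with the block under quantile normalization (Mmp13 and Mmp3), a pseudocount of 0.1 (Mmp3 and Mmp8) and a pseudocount of 10 (Mmp13 and Mmp3). Leaving out a pair of libraries with the block it was 2 to 2, Mmp13 and Mmp3 each time, since Mmp8 no longer passed the filter. Mmp3 passed in 9 of 9 settings with the block, Mmp13 in 8 of 9, Mmp8 in 4 of 6 and Mmp10 in 0 of 7. The log2 fold change stayed between 3.01 and 4.28 for Mmp3, 3.33 and 6.10 for Mmp13, 2.46 and 4.52 for Mmp8, and 1.37 and 5.32 for Mmp10, and Mmp27 went from -0.34 to 0.96. With the group means raised to at least 1 c.p.m. the log2 ratios were 3.38 for Mmp3, 4.22 for Mmp13, 2.32 for Mmp8 and 1.82 for Mmp10. With all 6 libraries, the block changed no call of the lists beyond those named in the report. Over all genes, 20 were called higher and 9 lower without the block, 119 and 73 with it, and 386 and 356 with library weights. Without the block, 12 to 28 were called higher under the other scalings, filters and pseudocounts, and 0 to 6 with 1 library left out. With the block, 85 were called higher and 57 lower without pair 1, 472 and 383 without pair 2, and 52 and 36 without pair 3. The cause of these differences was not tested. With the block and without a pair of libraries, Pcsk5 was called in all 3 settings. Timp1 and Tnc were not called without pair 3, and Col4a1, Col4a2 and Spp1 not without pair 1 or 3. Il6, Il1rn and Eln no longer passed the filter without any one pair, nor Serpine2 without pair 1. Further genes of the lists were called without pair 2, namely Mmp16, Mmp17, Tfpi2, Hgf, Plat, Nfkbia, Il1r1, Lifr, Osmr and Vcan higher and Mmp28, Timp3, Il6st and Dcn lower, and without pair 1 Il1rl1 higher and Dcn lower. The calls without pair 2 are to be read beside the larger number of all genes called in that setting. With library weights the calls were Mmp16, Timp1, Hgf, Plat, Il6, Pdgfa, Il1r1, Il1rn, Lifr, Osmr, Col4a1, Col4a2, Tnc and Vcan higher and Mmp28, Dcn and Eln lower. The share of the Mmp3 transcript matching elsewhere was 60.9% at 90% and 8.45% at 98% identity, and that of Mmp10 was 23.0% at 90%. With 3 libraries a group and few reads behind Mmp10, Mmp8 and Mmp12, the changes of these genes are known only roughly.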
